A study of Mus musculus with 9 samples.

Results

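Nkx2-5 encodes a homeodomain transcription factor of the heart, and 9 further genes encode the factors that act beside it in heart muscle. These are Gata4, Gata5 and Gata6 (zinc finger factors), Tbx5 and Tbx20 (T-box factors), Hand1 and Hand2 (basic helix-loop-helix factors), and Mef2c and Srf (MADS-box factors). The 10 genes were picked by name from what is known of the cardiac transcription network, with earlier results of these data also known. All 10 were found among the 48397 gene symbols counted. All 10 also passed the filter on low counts that left 16522 genes for testing. RNA was sequenced from cardiac outflow tracts of mouse embryos at embryonic day 12.5 on a C57BL/6J background. The wild-type group (4 libraries) carried the genotype Nkx2-5+/+. The deletion group (5 libraries) carried Nkx2-5delta-enh/delta-enh, which is homozygous loss of an enhancer that the series' title places in the anterior second heart field. The coding sequence of Nkx2-5 is not named as altered, and the labels do not say whether a sample is 1 embryo or a pool.

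These factors form a recursive network. NKX2-5, GATA4 and TBX5 bind each other and bind neighbouring sites in genes of the contractile apparatus, TBX20 acts both as an activator and as a repressor of chamber genes, HAND1 and HAND2 are needed for expansion of the ventricles and of second heart field derivatives, MEF2C drives muscle genes downstream of ISL1 and GATA factors, and SRF acts on muscle and cytoskeletal genes with its coactivator myocardin. In the outflow tract, second heart field progenitors that express Nkx2-5 and Mef2c add muscle to the arterial pole, and cushion mesenchyme there also expresses GATA, T-box and HAND factors.

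Marker genes were set beside the tissue label. All 32 sarcomere genes, all 12 smooth muscle genes, all 13 endothelial genes and all 11 cushion mesenchyme genes listed passed the filter. So did all 12 epicardium genes, all 11 red blood cell genes counted and all 10 leukocyte genes. Of the neuron and Schwann cell genes 15 of 16 passed, and of the neural crest genes 7 of 10. Passing a filter on low counts is thus no check of the tissue. Of 10 foregut genes, 4 passed the filter and the list summed to 32.5 to 55.8 CPM, while its members Shh and Sftpc had no read in any library. The libraries held 27707435 to 49094225 reads in genes. A number carried by each deposited library was read as a litter, which is an assumption. Wild types 1 and 2 and deletions 1 and 2 shared one number (called the first litter), wild types 3 and 4 and deletions 3 and 4 another (the second litter), and deletion 5 carried a number of its own. Deletion 2 stood apart in its neuron and Schwann cell markers, whose summed level was 3324 CPM there and between 132 and 213 CPM in the other 8 libraries (CPM, counts per 1000000 reads assigned to genes). With and without deletion 2, edgeR called none of the 10 genes between genotypes, so the calls say little about the influence of that library. Without it the log2 fold change was -1.20 rather than -1.05 for Nkx2-5 and 0.37 rather than 0.18 for Hand1. It was -0.10 rather than 0.07 for Tbx5, and 0.50 rather than 0.52 for Tbx20.

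The bases before the start of 4 of the genes are shown because they are the sequence nearest to the transcripts that were counted. They come from RefSeq on build GRCm38.p6, which had entries for 6 of the 10 genes, and are printed 5′ to 3′ on the strand of the gene. Each window is 250 bases long, less the 43 bases for Nkx2-5 and 13 for Srf that GENCODE M21 (mm10) annotates as exon of the same gene. The Nkx2-5 window lies in an intron of a longer annotated transcript, and that of Hand2 in an exon of the opposite-strand RNA Hand2os1. Nkx2-5 and Tbx20 had the largest genotype differences of the 10, and Hand2 and Srf held matches to motifs of factors in the network. The full windows of Mef2c, not shown, held 1, 4 and 2 such matches, and that of Gata5, also not shown, held 0. Capitals mark matches on either strand to AAGTG (core of the NKX2-5 site), GATAA (GATA site), GGTGTG (T-box site), CATCTG (a HAND E box), CTANNNNTAG (MEF2 site) or the CArG box bound by SRF. The deleted enhancer is not part of these windows.
Nkx2-5 (chr17:26841609-26841815, minus strand): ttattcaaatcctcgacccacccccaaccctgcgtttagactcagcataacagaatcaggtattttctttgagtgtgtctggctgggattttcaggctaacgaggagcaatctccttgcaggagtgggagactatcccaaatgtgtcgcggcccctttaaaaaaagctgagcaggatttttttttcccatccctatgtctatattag
Tbx20 (chr9:24774304-24774553, minus strand): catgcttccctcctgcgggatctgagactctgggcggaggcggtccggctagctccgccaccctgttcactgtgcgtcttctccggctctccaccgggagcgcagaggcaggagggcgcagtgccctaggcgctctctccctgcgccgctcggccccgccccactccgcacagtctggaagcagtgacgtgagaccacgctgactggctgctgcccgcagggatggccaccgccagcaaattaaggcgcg
Hand2 (chr8:57320733-57320982, plus strand): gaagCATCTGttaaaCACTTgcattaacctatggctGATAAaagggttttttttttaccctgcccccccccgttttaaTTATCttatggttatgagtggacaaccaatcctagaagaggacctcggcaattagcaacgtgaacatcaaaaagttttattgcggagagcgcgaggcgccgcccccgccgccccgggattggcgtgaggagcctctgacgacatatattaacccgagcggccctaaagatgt
Srf (chr17:46556176-46556412, minus strand): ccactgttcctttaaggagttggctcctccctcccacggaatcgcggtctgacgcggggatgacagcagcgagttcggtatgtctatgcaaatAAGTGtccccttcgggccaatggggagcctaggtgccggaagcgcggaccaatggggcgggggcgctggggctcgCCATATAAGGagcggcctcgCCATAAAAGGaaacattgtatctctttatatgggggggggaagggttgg

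The windows of Nkx2-5 and Tbx20 held none of these motifs. The window of Hand2 held 1 NKX2-5 core, 2 GATA sites and 1 HAND E box. That of Srf held 1 NKX2-5 core and 2 CArG boxes, with CCATATAAGG starting 82 bases and CCATAAAAGG 62 bases before the start. Among 32851 full windows of 250 bases, 40.7% held AAGTG, 22.6% GATAA, 16.3% GGTGTG, 14.4% CATCTG, 3.2% CTANNNNTAG and 1.47% a CArG box. A match describes letters only and does not show binding.

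The first comparison asked how much Nkx2-5 transcript was present without the enhancer. Nkx2-5 (mm10 chr17:26838664-26845009, minus strand) is protein coding, like the other 9 genes. In wild types 1 to 4 Nkx2-5 stood at 18.8, 42.0, 44.99 and 39.5 CPM. In deletions 1 to 5 it stood at 16.5, 24.4, 17.8, 11.4 and 17.4 CPM. Of the 5 deletion libraries, 4 lay below the lowest wild type, and deletion 2 lay above wild type 1 only. Wild types averaged 36.3 ± 11.9 CPM (SD, n = 4), and the deletion libraries averaged 17.5 ± 4.64 CPM (SD, n = 5). The log2 fold change was -1.05 (SE 0.26), which leaves 0.482 of the wild-type level with a 95% interval from 0.321 to 0.722. An exact two-sided permutation test over 126 labellings gave p = 0.0238, where 0.00794 was the smallest p possible. With labels permuted only within litters, and deletion 5 put in the second, the permutation p was 0.0333. That version had 60 labellings and a smallest possible p of 0.0167. The edgeR quasi-likelihood p was 0.00226 before and 0.896 after Benjamini-Hochberg adjustment over all genes, and the DESeq2 adjusted p was 0.0528. With litter as a factor the edgeR adjusted p was 0.791 with deletion 5 as its own level. It was 0.512 with deletion 5 in the second litter. With the replicate number of the labels as a block, the DESeq2 adjusted p was 0.0267 and the log2 fold change -1.02, while edgeR gave an adjusted p of 0.899. The block in DESeq2 was not a planned setting, and libraries with the same number also share a litter. Deletion 5 has no partner in the block fits and adds nothing to them. In bulk tissue, fewer cells that express a gene and less RNA per cell cannot be told apart.

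The level of sarcomere genes was set beside this value. Averaged over 32 sarcomere genes, log2 CPM ran from 7.57 in wild type 1 to 8.54 in wild type 2 and from 7.59 in deletion 4 to 8.14 in deletion 2, so the library with the lowest Nkx2-5 among the wild types and the one with the lowest among the deletions were also lowest for sarcomere genes in their groups. With that mean as a covariate the log2 fold change of Nkx2-5 was -0.85, with an edgeR p of 0.0011 before and 0.744 after adjustment. Without the covariate these were -1.05, 0.0023 and 0.896. Because NKX2-5 binds genes of the contractile apparatus, the sarcomere mean is not a measure of muscle content alone.

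**Figure D1:**
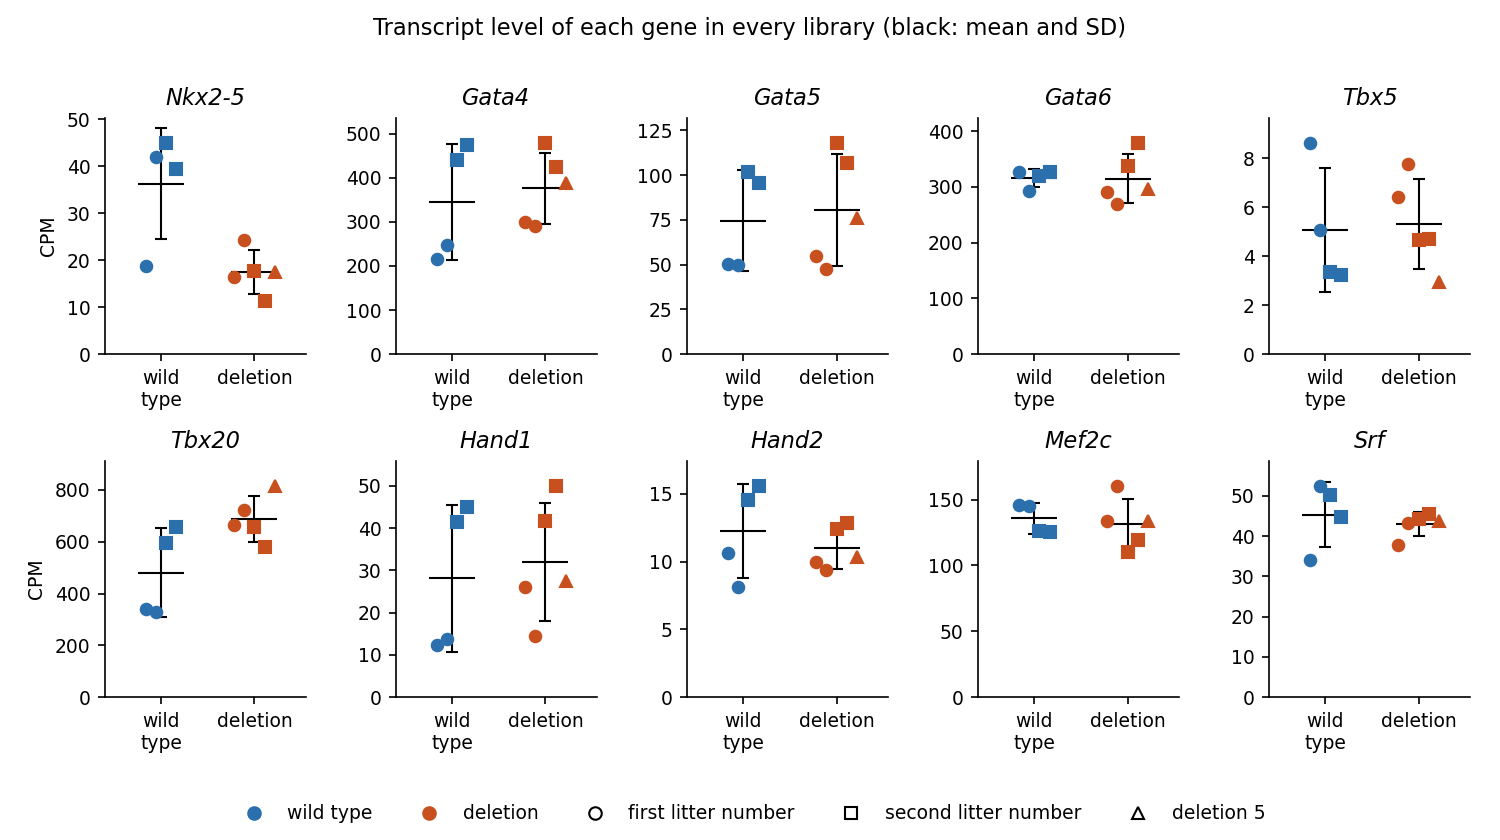
Level of each of the 10 genes in every library, in CPM on linear axes that start at 0; blue points are wild-type and orange points deletion libraries, circles and squares mark the first and second litter numbers, the triangle is deletion 5, and the black bar and whiskers give the mean and SD. For Nkx2-5, 4 of 5 deletion libraries sit below every wild type, while for Gata4, Gata5 and Hand1 the squares of both genotypes sit above the circles.

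Among the 9 partner factors, no genotype difference passed adjustment. Of the 10 genes, edgeR called 0 at an adjusted p of 0.05, as it called 0 of all 16522 genes (0%). DESeq2 called 0 of the 10, against 0.237% of the genes it tested. At an unadjusted edgeR p under 0.05 there were 2 of the 10, Nkx2-5 and Tbx20, against 5.27% of all genes. In 0 of the 10 did every deletion library lie below every wild type, which happened in 0.974% of all genes, and in 0 did every one lie above, which happened in 0.829%. The partners had a median log2 fold change of 0.07, beside 0.0029 for all genes tested, and their median absolute log2 fold change was 0.11, beside 0.15 for all genes. Of the 9, 4 were below 0, as were 49.4% of all genes.

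Gata4 (chr14:63198922-63271692), a partner that NKX2-5 binds directly, stood at 216, 247, 439.8 and 474 CPM in wild types 1 to 4 and at 300.4, 290.4, 479, 423 and 388 CPM in deletions 1 to 5. Both groups held a low pair, the libraries of the first litter, so the groups overlapped over nearly their whole range. Its log2 fold change was 0.13 (SE 0.25), with a 95% interval for the fold from 0.745 to 1.604. Gata5 (chr2:180325133-180334699), a GATA gene best known from endocardium, stood at 50.5, 49.9, 102 and 95.5 CPM in wild type and at 47.5 to 118 CPM in the deletion. Its interval for the fold was wider, from 0.659 to 1.78.

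Gata6 (chr18:11052064-11085635), a regulator of outflow tract and second heart field development, was the steadiest gene in wild type. It stood at 326, 293, 319 and 326 CPM there and at 291, 269, 338, 379 and 296 CPM in the deletion. Its log2 fold change was -0.01 (SE 0.11), and the interval for the fold ran from 0.841 to 1.18.

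Tbx20 (chr9:24718138-24774303), a T-box factor of myocardium and cushion mesenchyme, had the largest genotype difference among the partners. It stood at 339, 328, 597 and 659 CPM in wild types 1 to 4 and at 664, 723, 658, 578 and 815 CPM in deletions 1 to 5. The 2 wild types of the first litter were low, the 2 of the second lay within the range of the deletion libraries, and 3 of 5 deletion libraries exceeded every wild type. The means were 481 ± 172 CPM (SD, n = 4) and 688 ± 88.0 CPM (SD, n = 5). The log2 fold change of Tbx20 was 0.52 (SE 0.22) with an edgeR p of 0.0369 before adjustment and 0.896 after. The interval for the fold ran from 1.03 to 1.99. Tbx5 (chr5:119832668-119885219), the T-box factor of the atria and left ventricle and a partner of GATA4 and NKX2-5, was the scarcest of the 10, with 8.62, 5.07, 3.34 and 3.22 CPM in wild type and 2.95 to 7.78 CPM in the deletion. Those values rest on 111 to 319 reads per library, and the interval for the fold of Tbx5 ran from 0.601 to 1.83.

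The HAND genes differed between genotypes by less than their standard errors. Hand1 (chr11:57828705-57832818), a factor of the left ventricle and outflow tract, stood at 12.3, 13.9, 41.4 and 44.9 CPM in wild type and at 26.1, 14.4, 41.7, 49.96 and 27.4 CPM in the deletion. It had the widest spread of the 10, a coefficient of variation of 62.0% in wild type, and its interval for the fold, from 0.555 to 2.32, was the widest too. Hand2 (chr8:57320983-57324633), which second heart field and neural crest cells require, stood at 10.6, 8.15, 14.6 and 15.6 CPM in wild type and at 9.39 to 12.8 CPM in the deletion, with a log2 fold change of -0.16 (SE 0.21). The opposite-strand RNA Hand2os1 shares 461 bases, or 19.6%, of the Hand2 exons, and its RefSeq synonym Gm28063 had 0 reads in all 9 libraries. How reads from the shared bases were assigned is not given in the sources used here.

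The MADS-box genes were close between the genotypes. Mef2c (chr13:83504034-83667080), a direct target of ISL1 and GATA factors in the anterior second heart field, stood at 146, 146, 126 and 125 CPM in wild type and at 134, 160.4, 110.4, 119.7 and 134 CPM in the deletion. Its log2 fold change was -0.04 (SE 0.12), with an interval for the fold from 0.813 to 1.16. Srf (chr17:46548329-46556175) stood at 34.0, 52.4, 50.1 and 44.8 CPM in wild type and at 37.8, 43.2, 44.3, 45.4 and 43.9 CPM in the deletion, with an interval from 0.777 to 1.15. The intervals of Gata6, Mef2c and Srf were thus the narrowest of the 10, and those of Gata5, Tbx5 and Hand1 the widest.

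**Figure D2:**
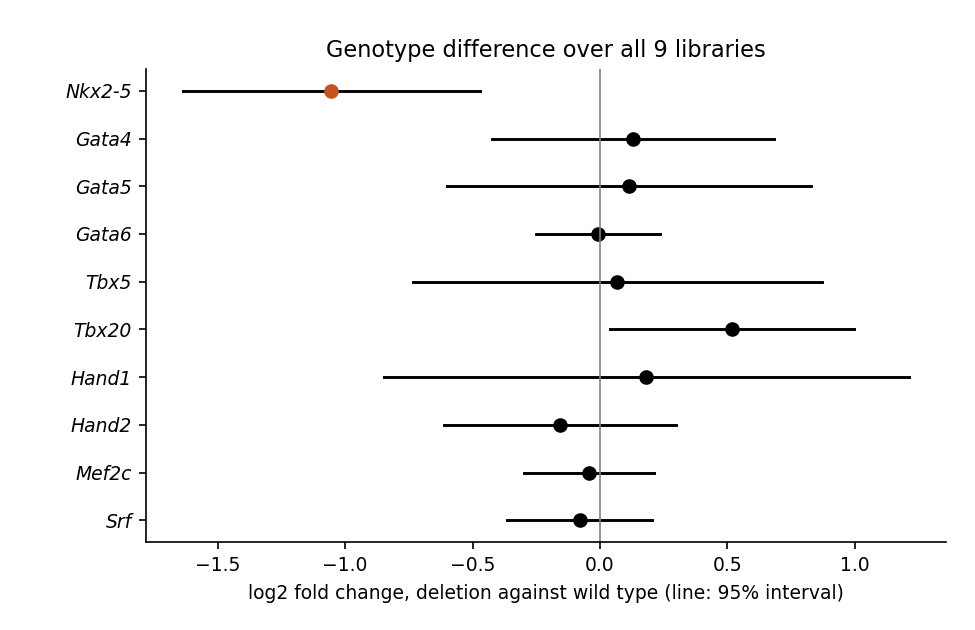
Log2 fold change of each gene, deletion against wild type over all 9 libraries (points), with its 95% interval from the quasi-likelihood fit (lines). Nkx2-5 (orange) lies at -1.05 and Tbx20 at 0.52, and the intervals of the other 8 genes span 0.

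The spread between libraries was larger than counting error for these genes. Counting alone would give a coefficient of variation from 0.675% for Tbx20 to 7.24% for Tbx5 at their mean read counts. Between wild-type libraries it ran from 4.93% for Gata6 to 62.0% for Hand1, and between deletion libraries from 6.92% for Srf to 43.8% for Hand1.

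The genotype comparison was then repeated within each litter, with 2 libraries per genotype. Tbx20 stood at 664 and 723 CPM in deletions 1 and 2 and at 339 and 328 CPM in wild types 1 and 2, a log2 fold change of 1.07 (SE 0.17, edgeR unadjusted p = 0.00073, adjusted p = 0.432). In the second litter, deletions 3 and 4 (658 and 578 CPM) lay beside wild types 3 and 4 (597 and 659 CPM), at a log2 fold change of -0.02 (SE 0.09). Deletion 5, at 815 CPM, was the highest library of all. The test of the difference between the litters gave an interaction of -1.08 (SE 0.17) for Tbx20, with an edgeR p of 0.000232 before and 0.213 after adjustment. DESeq2 gave an adjusted p of 1.58e-06 for the same term. When 1 of the 8 libraries was left out, the edgeR adjusted p of this interaction ran from 0.0310 without deletion 1 to 0.877 without deletion 4.

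Nkx2-5 had its larger difference in the other litter. Its log2 fold change was -0.55 (SE 0.42) in the first and -1.53 (SE 0.20) in the second, where the edgeR adjusted p was 0.0677. The interaction of -0.96 (SE 0.54) did not pass, with an adjusted p of 0.718 in edgeR and 0.605 in DESeq2, so the litters are not shown to differ for Nkx2-5. Over the 10 genes, 1 interaction (that of Tbx20) had an unadjusted edgeR p under 0.05, beside 8.06% of all genes, and 0 passed adjustment, beside 0.0121%. DESeq2 called 1 of the 10, beside 1.01% of all genes.

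Cell type markers also differed among the libraries behind the Tbx20 contrast. The mean log2 CPM of the 11 cushion mesenchyme genes was 6.73 and 6.43 in wild types 1 and 2 and between 6.96 and 7.54 in the other 7 libraries, although their summed level was 13703 and 10876 CPM in those wild types and 8012 to 10036 CPM elsewhere. The summed level of the 11 red blood cell genes counted was 6669.8 and 10349 CPM in wild types 1 and 2, against 4395 and 1886 CPM in deletions 1 and 2. It was 1829 and 2239 CPM in wild types 3 and 4, against 5082 and 3377 CPM in deletions 3 and 4. The 2 genes past edgeR for the interaction over all genes, named after their values were seen, were the adult globin genes Hbb-bs (3.52) and Hbb-bt (3.42), each with an adjusted p of 0.0350. The part of these cell types in the Tbx20 values was not tested.

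**Figure D3:**
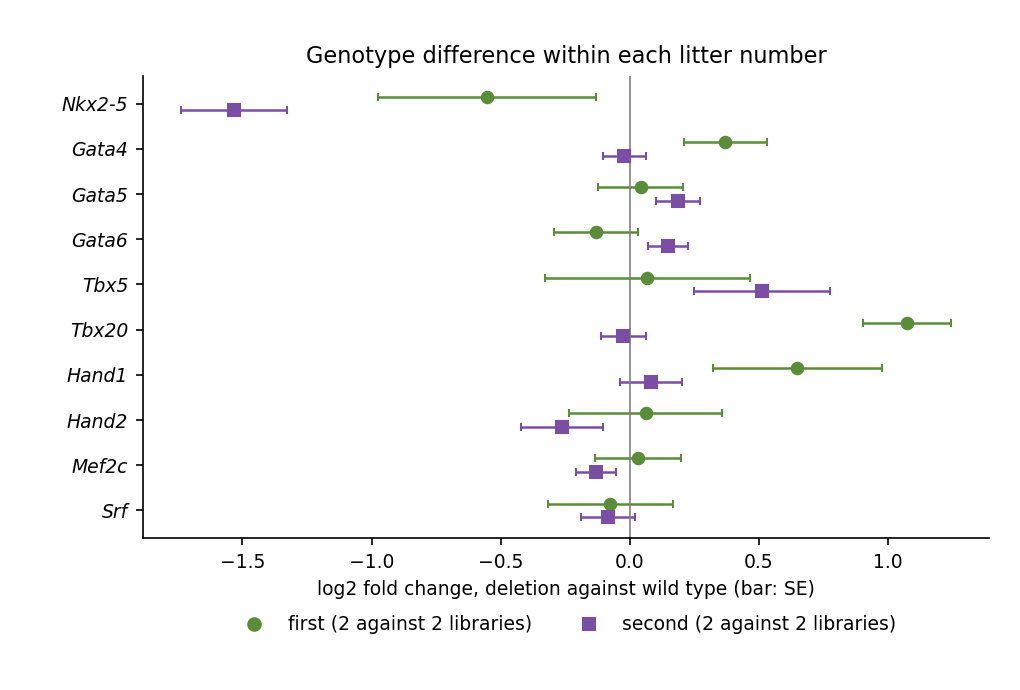
Log2 fold change of each gene, deletion against wild type, fitted within the first (green circles) and the second (purple squares) litter number with 2 libraries per genotype; bars are standard errors. Tbx20 lies at 1.07 in the first and -0.02 in the second, and Nkx2-5 at -0.55 and -1.53.

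A ratio of reads within a library does not depend on library scaling, and the ratios were chosen after the values were seen. For each read of Tbx20, wild types 1 to 4 held 0.0555, 0.128, 0.0754 and 0.0600 reads of Nkx2-5. Deletions 1 to 5 held 0.0249, 0.0337, 0.0270, 0.0197 and 0.0214. The ranges of the genotypes did not overlap in this ratio, whereas each gene overlapped on its own. It sets the member with the largest fall against the one with the largest rise. How many other pairs of genes separate the genotypes was not counted. Against Gata4 the ratio ran from 0.0833 to 0.170 in wild type and from 0.0268 to 0.0840 in the deletion, and against Srf from 0.553 to 0.898 and from 0.251 to 0.564. In both of these ratios deletion 2 alone entered the wild-type range. Against Mef2c the genotypes overlapped more: wild types ran from 0.129 to 0.357 and deletions from 0.0950 to 0.161, with deletions 2, 3 and 5 inside the wild-type range.

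The second comparison asked how the genes vary across the litters, with genotype as a covariate and without deletion 5. Gata4, Gata5 and Hand1 were higher in the second litter. Hand1 went from 16.7 ± 6.33 CPM (SD, n = 4) to 44.5 ± 3.98 CPM (SD, n = 4), with a log2 difference of 1.45 (SE 0.20, edgeR adjusted p = 0.00799). Gata5 went from 50.7 ± 3.02 to 105.6 ± 9.47 CPM, a log2 difference of 1.06 (SE 0.09, adjusted p = 0.00320). Gata4 went from 263 ± 39.3 to 454 ± 26.9 CPM, a log2 difference of 0.80 (SE 0.10, adjusted p = 0.00652). In each of these, all 4 libraries of the second litter exceeded all 4 of the first, in both genotypes. These 3 of the 10 genes stood against 5.47% of all genes called higher in the second litter, and 0 of the 10 against 4.18% called lower.

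A further 3 genes missed the threshold narrowly. Hand2 had a log2 difference of 0.53 (SE 0.15, edgeR adjusted p = 0.0540), Tbx5 of -0.83 (SE 0.23, adjusted p = 0.0571) and Mef2c of -0.29 (SE 0.08, adjusted p = 0.0621). DESeq2 called these 3 as well, 6 of the 10 in all, where it called 19.4% of all genes. In those 6 genes, 4 of them higher and 2 lower in the second litter, the litters did not overlap, which held for 19.5% of all genes. Tbx20 (0.37, SE 0.20), Gata6 (0.21, SE 0.09), Srf (0.14, SE 0.13) and Nkx2-5 (0.00, SE 0.31) had adjusted p of 0.188 or more. For Nkx2-5 it joins wild types 1 and 2 at 18.8 and 42.0 CPM and, in the same litter, deletions 1 and 2 at 16.5 and 24.4 CPM. Without wild type 1 its log2 difference was -0.29. Over the 10 genes the median absolute litter difference was 0.45 on the log2 scale, beside 0.26 over all genes.

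Deletion 5 lay between the litters in several of these genes. It held 76.0 CPM of Gata5, above the 4 libraries of the first litter (at most 54.7 CPM) and below those of the second (at least 95.5 CPM). It held 388 CPM of Gata4 and 27.4 CPM of Hand1, each likewise above the first and below the second litter, and 2.95 CPM of Tbx5, below all other libraries.

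Some markers of other cells differed between the litters too. All 10 macrophage and leukocyte genes were lower in the second litter, 8 of them past edgeR, with a summed level of 246 to 405 CPM in the first and 73.8 to 136 CPM in the second. Over all genes, 5.47% were called higher and 4.18% lower in the second litter. Of the 11 cushion mesenchyme genes, 5 were called higher in the second litter and 0 lower. Their summed levels overlapped, at 8012 to 13703 CPM in the first litter and 8764 to 10036 CPM in the second. Of the 32 sarcomere genes 0 were called higher and 3 lower, with summed levels of 14606 to 31839 CPM and 18548 to 26918 CPM that overlapped. None of these lists had a gene at 0 in every library. Their part in the litter differences of Gata4, Gata5 and Hand1 was not tested.

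**Figure D4:**
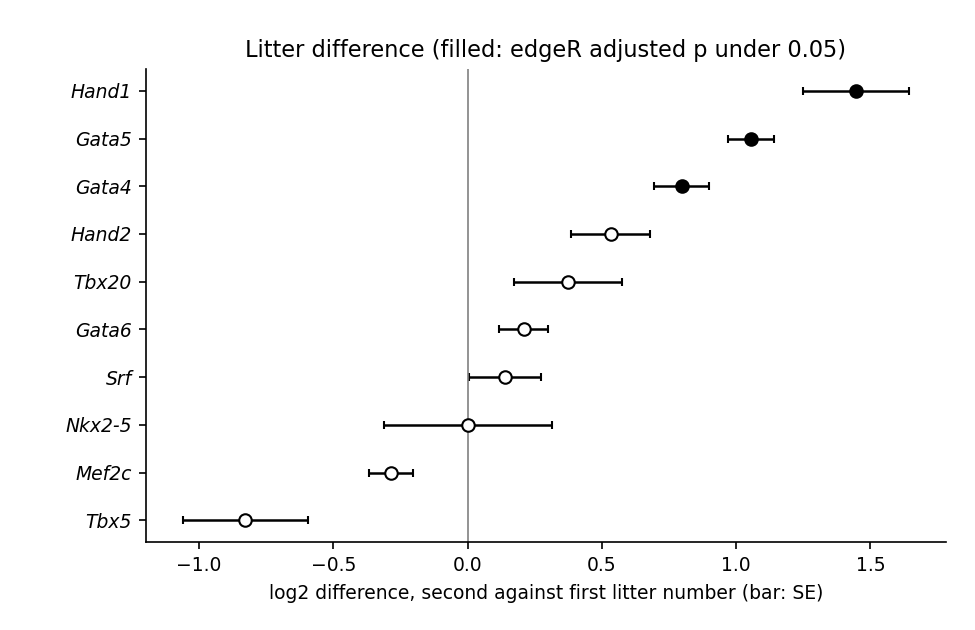
Log2 difference between the second and the first litter number for each gene, with genotype as a covariate and deletion 5 left out (8 libraries); bars are standard errors and filled points passed edgeR at an adjusted p of 0.05. Hand1 (1.45), Gata5 (1.06) and Gata4 (0.80) passed, and Nkx2-5 lies at 0.00.

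Levels were compared between genes per kb of exon (union of annotated exons). In wild type, Gata4 was the most abundant, at 88.2 ± 33.7 CPM per kb (SD, n = 4), and above Gata6 in 4 of 4 libraries. Gata6 (48.6 ± 2.39) and Tbx20 (40.1 ± 14.3) followed, with Gata6 above Tbx20 in 2 of 4 libraries. Gata5 (22.7 ± 8.58), Nkx2-5 (21.1 ± 6.91), Srf (15.7 ± 2.83) and Hand1 (14.1 ± 8.73) had ranges that overlapped from each to the next. Mef2c (8.63 ± 0.740), Hand2 (5.21 ± 1.48) and Tbx5 (1.08 ± 0.539) had the lowest means and kept that order among themselves in 4 of 4 libraries.

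In the deletion, Nkx2-5 stood at 10.2 ± 2.70 CPM per kb (SD, n = 5) and moved from the fifth to the seventh place. Srf, at 14.8 ± 1.03, lay above it in 5 of 5 deletion libraries, whereas Nkx2-5 lay above Srf in 3 of 4 wild types. Tbx20, at 57.3 ± 7.33, lay above Gata6 (48.3 ± 6.73) in 4 of 5. The order depends on the annotated length for genes with many isoforms. Per kb of the longest transcript, Mef2c in wild type was at 21.6 and Gata6 at 83.6 CPM per kb, Gata4 exceeded Gata6 in 2 of 4 wild types, and Nkx2-5 went from the fourth to the eighth place.

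**Figure D5:**
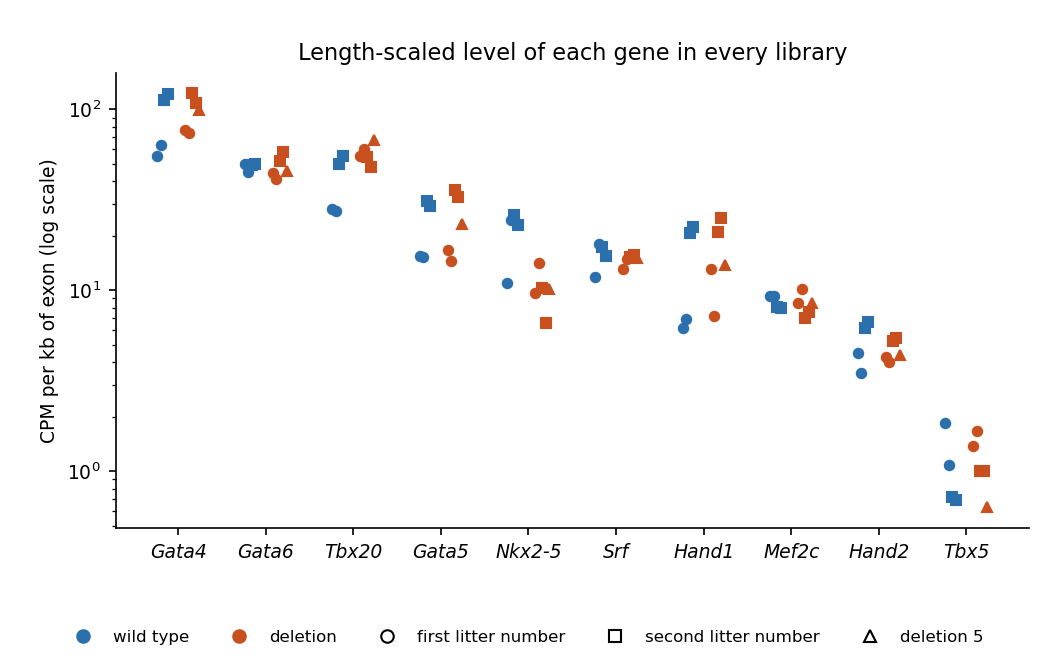
Level of each gene per kb of exon in every library, on a log axis, ordered by the wild-type mean; colours and symbols are those of the plot of levels in CPM. Gata4 leads at 88.2 CPM per kb in wild type and Tbx5 is lowest at 1.08, and Nkx2-5 lies below Srf in each deletion library.

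Genes annotated over the members were checked because the strand setting of the counting is not given. Reads from shared bases may be counted with a member or left out as ambiguous. Gata5os, transcribed opposite to Gata5, shares 7.87% of the exon bases of Gata5 and had 9 to 19 reads in wild type and 9 to 72 in the deletion. Its wild-type mean was 0.349 ± 0.108 CPM (SD, n = 4), its deletion mean was 0.960 ± 0.458 CPM (SD, n = 5), and their log2 ratio was 1.46 (SE 0.50, edgeR adjusted p = 0.896), beside 1361 to 4237 reads per library for Gata5. Of the exon bases of Gata6, 1.43% are shared with an RNA on the opposite strand. That RNA, 1010001N08Rik, stood at 10.4 ± 1.06 and 10.7 ± 2.19 CPM. Exons of Nkx2-5, Gata4, Tbx5, Tbx20, Hand1, Mef2c and Srf share no base with an exon of another gene in GENCODE M21.

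Further genes of the network were taken as lists of cofactors, of other genes in the same families, and of genes known as targets. Of 31 cofactor genes tested, edgeR called 0, with 10 above and 21 below 0 (49.4% of all genes were below 0) and a median log2 fold change of -0.06. At an unadjusted p under 0.05 there was 1 of the 31, where 5.27% of all genes had such a p. It was Myocd, the SRF coactivator myocardin, with wild types at 60.3 ± 10.5 CPM (SD, n = 4) and deletions at 47.5 ± 4.12 CPM (SD, n = 5; log2 fold change -0.34, SE 0.13, edgeR adjusted p = 0.896). Smooth muscle genes moved the same way beside it, 11 of 12 below 0, with a summed level of 4812 to 5314 CPM in wild type and 3757 to 4715 CPM in the deletion. The part of smooth muscle content in the value of Myocd was not tested. The next cofactors by p were Cited2 (0.30, SE 0.14) and Hdac5 (-0.21, SE 0.11).

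Of 19 family members tested, 9 were above and 10 below 0, with a median of -0.05 and 0 called by edgeR or DESeq2. Tbx1, a second heart field regulator, was the 1 gene of the 19 with an unadjusted p under 0.05 (5.27% of all genes). Its wild types stood at 5.13 ± 2.59 CPM and its deletions at 2.59 ± 0.970 CPM. Wild types 1 to 4 held 275, 285, 99 and 121 reads of Tbx1, and deletions 1 to 5 held 190, 47, 110, 80 and 59. The high wild types were thus those of the first litter, and the groups overlapped (2.88 to 7.65 and 1.57 to 3.83 CPM). By p, Tbx2 (-0.30, SE 0.17) and Tbx3 (0.56, SE 0.34) followed. Of 39 target genes tested, 13 were above and 26 below 0, with a median of -0.17 beside 0.0029 over all genes. edgeR called 0 of them. At an unadjusted p under 0.05 there were 1 higher and 6 lower, beside 5.27% of all genes, and DESeq2 called 3, beside 0.237%. Below 0 lay 49.4% of all genes. Sln, which encodes the calcium pump regulator sarcolipin, stood at 34.4 ± 11.6 CPM in wild types and at 12.6 ± 5.04 CPM in deletions (log2 fold change -1.44, SE 0.29, DESeq2 adjusted p = 0.00152, edgeR adjusted p = 0.446). Another call was Fgf10, a growth factor of the second heart field, at 5.97 ± 2.34 and 12.1 ± 1.95 CPM, a log2 fold change of 1.01 (SE 0.26, DESeq2 adjusted p = 0.0486, edgeR adjusted p = 0.896). Sema3c, a guidance ligand of the outflow tract, was not called, at 242 ± 59.5 and 139 ± 31.2 CPM (DESeq2 adjusted p = 0.0522). Fgf10 has an annotated RNA on its opposite strand, and reads from shared bases may be counted with Fgf10 or left out as ambiguous. The target list shares genes with the sarcomere list, of which 27 of 32 were below 0 with a median of -0.18. The part of muscle content in these values was not tested.

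The genes whose level followed Nkx2-5 most closely were sought among 9967 genes with a mean of at least 10 CPM. Over the 9 libraries the highest Pearson correlations of log2 CPM were those of Rpp21 (0.98), Vash2 (0.97), Shb (0.92), Epn3 (0.92) and Hes6 (0.92). The libraries share genotype and litter, so these values describe a common pattern only. After each genotype's mean was taken off they were 0.96, 0.92, 0.83, 0.85 and 0.85. These genes were picked as the highest of 9967 in the same 9 libraries, so the second set of values is no separate check. Of the 8 partners in that set, Srf was the most like Nkx2-5 (0.55, place 597), followed by Mef2c (0.22) and Hand2 (0.12), and Gata6 the least (-0.34). With each genotype's mean taken off the order changed: Srf was at 0.66, Tbx20 went from -0.24 to 0.54 and Gata4 from 0.00 to 0.28, Mef2c was at 0.14, Hand2 at -0.05 and Gata6 at -0.61. Tbx5 was below the level required.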

How the data were processed

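SMART-Seq cDNA from outflow tract RNA was sequenced. Each deposited table gives raw read counts for 48397 gene symbols. STAR 2.5.0c, Picard, HTSeq 0.6.0, DESeq2 and build mm10 are named in the submitters' processing notes. Their order, the annotation and strand are not given there. Rows without a gene name (5 per table) were left out; they made up 20.6% to 23.5% of each table, and reads ambiguous between genes 3.74% to 4.02%. No pair among 36 pairs of libraries agreed within sampling noise (chi-square per gene 15.9 or more), so each counted once.

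The count test was that of edgeR 4.0.16, run in R 4.3.3 (robust quasi-likelihood, TMM, filterByExpr with a minimum count of 10, two-sided, Benjamini-Hochberg threshold 0.05). CPM uses TMM-scaled totals, and log2 CPM a prior count of 2. Intervals are 95% and come from the same fit. DESeq2 1.42.0 and limma 3.58.1 (voom, sample weights) were alternatives, as were other scalings, filters, covariates and subsets of libraries. Lengths and positions come from GENCODE M21 (mm10), which matched 46467 of the 48397 symbols.

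Groups come from the sample titles, and litters from a number in the deposited names. Since separate embryos are not stated, p-values measure the spread between samples alone, and part of it may be technical. Wild-type and deletion libraries with the same replicate number deviated together from their group means (correlations 0.242, 0.137, 0.227 and 0.176). The mean correlation was 0.193 within a litter and -0.196 between litters, and the same number gave the highest value in 5 of 8 libraries. Pairing by number thus cannot be told apart from a shared litter. The numbers were used as a block in alternative fits only. Named genes were the 10 members, genes overlapping them, DESeq2 or edgeR calls and the 3 smallest p per list, and the 5 genes most like Nkx2-5. Members and lists were chosen with earlier results of these data known. For 1 gene that this rule names, the result is not reported here.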

Additional observations from a re-analysis of the deposited data

Results flagged for a closer look

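The genotype difference of Tbx20 differed between the litters by DESeq2's test of that difference (log2 interaction -1.09, adjusted p = 1.58e-06), while edgeR gave an adjusted p of 0.213 for it. With deletion 5 counted in the second litter the edgeR interaction was -0.93 (adjusted p = 0.351). The direction was the same when each of the 8 libraries was left out in turn.

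Srf in deletion 1 stood at 37.8 CPM, apart from the other 4 deletion libraries at 43.2 to 45.4 CPM, by Dixon's gap test. Among the 20 sets of values tested (10 genes in 2 genotypes) this was the 1 that passed, and chance gives about 1 in 20. Wild type 1, at 34.0 CPM, was lower still.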

How the results depend on the processing

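Over all genes, edgeR called 0 genes for the genotype (870 at an unadjusted p under 0.05), DESeq2 called 40, limma voom with sample weights 4, the replicate block with DESeq2 65, the first litter alone 1 and the second litter alone without deletion 5 7; leaving out 1 library gave 0 to 1, the 1 without wild type 1 and again without wild type 3. None of these 23 alternatives called a partner factor. Nkx2-5 kept its direction in all, from -1.53 to -0.55. DESeq2 called Nkx2-5 (-1.02) when libraries were blocked by their replicate number, and edgeR did not (-1.02). The labels do not state that libraries with the same number are pairs. Leaving out 1 library gave -1.27 to -0.93 for Nkx2-5.

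Small partner differences changed sign, none past adjustment. Under voom Gata4 was -0.0151, Gata5 -0.0203, Gata6 0.0131 and Hand1 -0.0277. In the second litter alone Gata4 was -0.0213, Gata6 0.149 and Tbx20 -0.0248, and with deletion 5 added Gata4 was -0.0875, Gata6 0.0655 and Hand1 -0.123. In the first litter alone Hand2 was 0.0618 and Mef2c 0.0321. Gata6 was 0.0018 with the replicate block, 0.0071 with that block in DESeq2 and 0.0025 with litter as a factor. With the sarcomere covariate Hand1 was -0.0383 and Srf 0.0020. Leaving out 1 library gave -0.0404 to 0.330 for Gata4, -0.0615 to 0.306 for Gata5, -0.0771 to 0.0464 for Gata6, -0.105 to 0.452 for Tbx5, -0.0657 to 0.509 for Hand1 and -0.122 to 0.0194 for Mef2c. The cause was not tested.

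For the litters, 1595 genes were called by edgeR and 3195 by DESeq2, and 360 to 1726 without 1 library. The count was 992, 360 and 441 without wild type 1, 3 or 4, and 400 and 784 without deletion 3 or 4. Gata4, Gata5 and Hand1 stayed called in all 10 alternatives, with adjusted p of at most 0.0346, 0.0223 and 0.0385. Nkx2-5 differed by -0.0060 in DESeq2, and by -0.29 to 0.22 without 1 library. For the interaction edgeR called 2 genes, 10 with deletion 5 in the second litter, and DESeq2 178; leaving out 1 library gave 0 (without wild type 2 or 3, or deletion 2, 3 or 4), 1 (wild type 4), 9 (wild type 1) or 243 (deletion 1), where the lone library left in an arm is assumed to vary like the others.

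With 4 and 5 libraries, the spread between libraries exceeded counting error for all 10 genes, Tbx5 with its 111 to 319 reads included. No label gives the litter, the pooling of embryos or the strand setting.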
